A study of Homo sapiens with 6 samples.

Results

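Genes of the type I interferon response were examined in oral squamous cell carcinoma (OSCC) cells after knockdown of DLEU1, a long noncoding RNA transcribed from 13q14. The 53 genes comprised the ligand IFNB1, 3 sensors of foreign RNA, 4 transcription factors, and 45 induced effectors. All 69 probes carrying one of these gene names were taken, out of 50599 probes on the array. RNA from HSC-3, KON, and Ca9-22, which are established OSCC lines, was hybridized to 6 one-color expression arrays 72 h after transfection. Each line gave 1 array with siDLEU1-2, a single siRNA duplex against DLEU1, and 1 with siCtrl, a commercial universal negative control siRNA. Both siRNAs were introduced with Lipofectamine RNAiMAX, so every array comes from transfected cells, and untreated cells were not analysed here. The 3 lines stood as replicates of the knockdown, and no line was measured a second time with the same siRNA. The p-values given for single genes therefore reflect only how differently these lines responded to the siRNA.

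Type I interferons are secreted by cells that detect foreign or misplaced nucleic acid. RIG-I, encoded by DDX58, and MDA5, encoded by IFIH1, bind viral RNA and signal through MAVS to the kinases that activate interferon transcription, and LGP2, encoded by DHX58, modulates both. Secreted interferon binds IFNAR1 and IFNAR2 on the cell surface, and the kinases JAK1 and TYK2 then phosphorylate STAT2, which joins IRF9 in a complex that binds the interferon-stimulated response element (ISRE). Many tumor lines transcribe such genes at a low constant rate without added interferon, and many of the sensors and transcription factors are themselves induced.

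The ISRE core was searched for in promoter windows because it is the element through which the STAT2 complex acts. RefSeq promoters (GRCh38.p14, 250 bases before to 50 after the gene start) were matched for 44 of the 53 genes. The core GAAANNGAA was found on either strand in 29 of the 44 (65.9%), against 8.29% of all 27305 promoters. A match describes these letters only and is not a measured binding site. The windows below span 30 bases around the ISRE core of 8 genes, written 5′ to 3′ on the strand of the gene with the core in capitals, and a core on the other strand reads as its complement. IFI6 and IFI44 were lower after knockdown by limma, IFI44L and BST2 were lower mainly in Ca9-22, ISG15 encodes the ubiquitin-like modifier of the response, and the last 3 genes changed in opposite directions between lines. Of the 5 genes with a matched promoter that limma called lower after knockdown, IFI6, IFI44, and TRIM21 held the core (60%), and STAT2 and IFI35 did not.
IFI6: gcagagtgcaGAAATAGAAactccgacagg
IFI44: gggcacactgagtTTCAGTTTCctttctct
IFI44L: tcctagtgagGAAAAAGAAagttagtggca
BST2: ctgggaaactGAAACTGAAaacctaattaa
ISG15: aagggaaaccGAAACTGAAgccaaatttgg
IFIT1: actttcccctTTCGGTTTCcctaggtttcc
HERC5: aacattatgtTTCGTTTTCcactggagctg
RSAD2: agcgggaaacGAAAGCGAAgcgttgcgggg
These windows lie on GRCh38.p14 at chr1:27672266-27672295 for IFI6, chr1:78649759-78649788 for IFI44, chr1:78620365-78620394 for IFI44L, chr19:17405735-17405764 for BST2, chr1:1013386-1013415 for ISG15, chr10:89392511-89392540 for IFIT1, chr4:88457036-88457065 for HERC5, and chr2:6865796-6865825 for RSAD2. The strands of the duplex used on all 3 knockdown arrays are given because 1 siRNA carries every comparison, with the seed of the antisense strand (bases 2 to 8) in capitals.
siDLEU1-2 sense strand: cagggguuaucgcacuuaagc
siDLEU1-2 antisense strand: uUAAGUGCgauaaccccugua
The complement of that seed, GCACTTA, was present in 0 of the 69 probes of these genes and in 138 of all 50599 probes (0.273%). A probe covers 60 bases of a transcript, so the rest of each transcript was not searched.

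DLEU1 itself was lower by 4.10, 3.63, and 3.44 on the log2 scale in HSC-3, KON, and Ca9-22. Levels are given as log2 signal relative to the 75th percentile of the array, and that percentile lay between 200 and 257 intensity units on the 6 arrays, with 43.0% to 45.7% of the probes well above background. The squamous markers (KRT5, KRT14, KRT6A, KRT17, SFN, DSG3, LAMB3) were well above background on all 6 arrays for 7 of 7 genes. Of the leukocyte markers CD14, PTPRC, CD3E, ITGAM, NCAM1, and LILRA4, CD14 alone reached this on all 6 arrays. COL1A1 was the one such gene among 3 fibroblast markers. Of the endothelial markers PECAM1 and CDH5 neither was, but CDH5 was well above background on 5 arrays, all except siCtrl in Ca9-22. It changed by 2.08 in HSC-3 and 0.98 in KON and did not pass (limma adjusted p = 0.113). DSG3, KRT6A, and SFN fell after knockdown (mean log2 change -2.12, -1.33, and -0.81, limma adjusted p = 0.0266, 0.0247, and 0.047), while KRT5, KRT14, KRT17, and LAMB3 did not pass. In Ca9-22, KRT17 and LAMB3 changed by 1.34 and 0.93, KRT5 by -1.89, and the 3 KRT14 probes by 1.47, -0.87, and -1.16. COL1A1 rose (1.45, limma adjusted p = 0.0423). The part of these markers in the results was not tested.

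The genes of the interferon response were lower after DLEU1 knockdown in Ca9-22 far more often than in HSC-3 or KON. With signal well above background required once or more in each line, 62 probes of 50 of the 53 genes were kept. In Ca9-22, 50 of the 62 probes (80.6%) were over 2-fold lower, against 6.46% of the 19956 probes of all genes that passed the same filter. None was over 2-fold higher there, against 6.56% of all probes. In HSC-3, 13 of the 62 (21%) were over 2-fold lower and 5 over 2-fold higher, against 6.68% and 7.53% of all probes. In KON, 14 (22.6%) were over 2-fold lower and 3 over 2-fold higher, against 7.29% and 7.3% of all probes. Their median change, as a log2 fold change, was -0.29 (HSC-3), -0.26 (KON), and -1.57 (Ca9-22), while the median over all probes was within 0.02 of 0 in each line. In bulk RNA, fewer cells expressing a gene and less RNA per cell cannot be told apart. Each of these counts rests on 1 pair of arrays per line, and the spread between repeat cultures of a line was not measured.

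**Figure D1:**
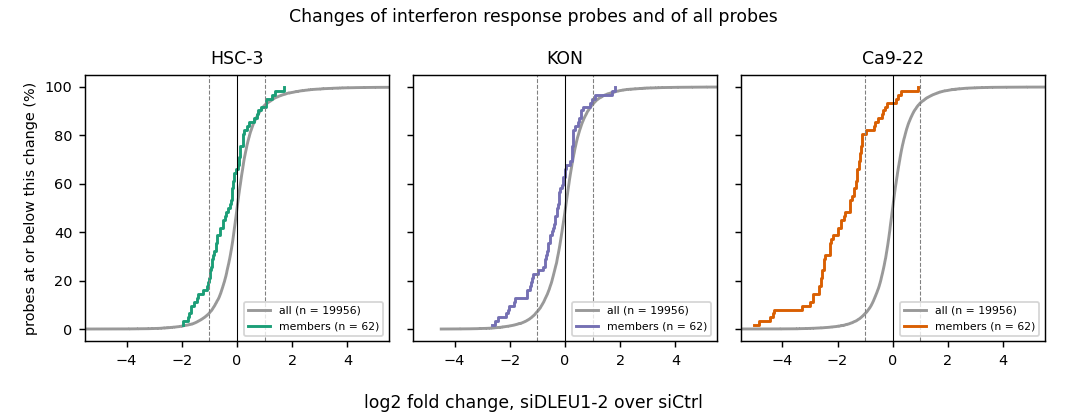
Cumulative share of probes (vertical axis, percent) at or below a given log2 fold change of siDLEU1-2 over siCtrl (horizontal axis), with 1 panel per cell line, gray for all 19956 probes kept and color for the 62 interferon response probes, and dashed lines at 2-fold. The colored curve lies slightly left of the gray one in HSC-3 and KON and far left of it in Ca9-22, where its median is -1.57.

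The change in Ca9-22 was the lowest of the 3 lines for 55 of the 62 probes (88.7%), against 32.6% of all probes. With each gene shown by the brightest of its kept probes, 39 of 50 genes were over 2-fold lower in Ca9-22, 9 in HSC-3, and 11 in KON. By role, the Ca9-22 count was 3 of 3 sensors, 3 of 4 transcription factors, and 33 of 43 effectors. The median changes in Ca9-22 were nearly the same for these classes, at -1.57 for sensors, -1.66 for transcription factors, and -1.48 for effectors. In HSC-3 the medians were 0.09, -0.82, and -0.25, and in KON they were -0.72, -0.83, and -0.23. With 3 and 4 genes in the smaller classes, these medians are descriptions and the classes were not tested against each other. The response of Ca9-22 was also set against the mean response of HSC-3 and KON for every probe. In this limma fit no probe was called at an adjusted p of 0.05, 0% of all 19956, and the smallest adjusted p among the 62 was 0.571. At an unadjusted p under 0.05, 31 of the 62 probes were lower in Ca9-22 than in the other lines and 0 higher, against 2.54% of all probes lower and 2.07% higher. The fit has 1 residual degree of freedom besides the spread borrowed across probes. Without the filter on dim probes, 6 of the 69 probes were called, all lower, against 1.24% of all 50544 probes lower.

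**Figure D2:**
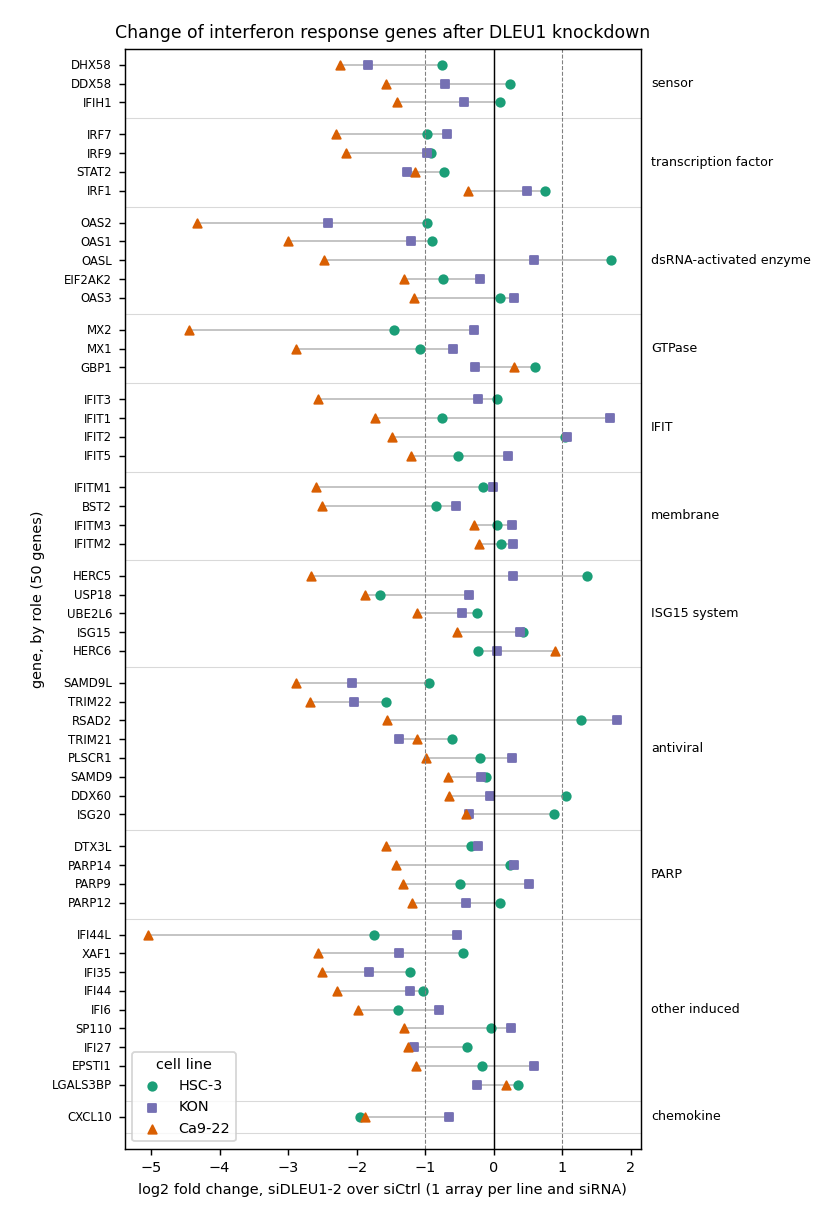
Log2 fold change of siDLEU1-2 over siCtrl (horizontal axis) for 50 interferon response genes (vertical axis, grouped by role), with 1 point per cell line and dashed lines at 2-fold. The Ca9-22 triangle is the leftmost point for 44 of the 50 genes, and IFI44L reaches -5.04 there.

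At the brightest probe of each gene, the sensors were lower in Ca9-22 in every case and differed in the other lines. DHX58, which encodes the regulator LGP2, stood at 4.02 under siCtrl and 3.26 under siDLEU1-2 in HSC-3, at 1.54 and -0.30 in KON, and at 4.25 and 2.01 in Ca9-22. It was lower in 3 of 3 lines, and the mean change of -1.61 ± 0.77 on the log2 scale (SD, n = 3) missed the threshold (limma adjusted p = 0.0518). The KON arrays were the lowest, and the siCtrl and siDLEU1-2 ranges overlapped. IFIH1, the sensor MDA5, stood at 4.16 and 4.25 in HSC-3, at 1.51 and 1.07 in KON, and at 3.45 and 2.04 in Ca9-22 (mean -0.58 ± 0.76, limma adjusted p = 0.292). DDX58, the sensor RIG-I, stood at 3.80 and 4.04 in HSC-3, at 0.41 and -0.31 in KON, and at 2.27 and 0.69 in Ca9-22 (mean -0.68 ± 0.90, limma adjusted p = 0.288). Neither was lower in HSC-3, and for both the ranges of the siRNAs overlapped. The dimmer of 2 DDX58 probes gave 0.23, -0.06, and 0.11 in HSC-3, KON, and Ca9-22, so the change of DDX58 in Ca9-22 rests on 1 probe.

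Among the transcription factors, STAT2 fell. This partner of IRF9 (probe at chr12:56735384-56735443, hg19) stood at 6.29 under siCtrl and 5.57 under siDLEU1-2 in HSC-3, at 4.65 and 3.38 in KON, and at 5.17 and 4.01 in Ca9-22. Its mean log2 fold change was -1.05 ± 0.29 (SD, n = 3, SE 0.17, limma adjusted p = 0.0375), and the change in Ca9-22 (-1.16) lay between those of the other lines. IRF9, the DNA-binding part of the same complex, stood at 4.22 and 3.30 in HSC-3, at 1.35 and 0.37 in KON, and at 3.38 and 1.23 in Ca9-22 (mean -1.35 ± 0.70, limma adjusted p = 0.0612). IRF7, which amplifies interferon transcription, stood at 7.02 and 6.04 in HSC-3, at 3.43 and 2.74 in KON, and at 5.03 and 2.74 in Ca9-22 (mean -1.32 ± 0.86, limma adjusted p = 0.0866). Both were lower in 3 of 3 lines and missed the threshold, and under siDLEU1-2 the IRF7 level of Ca9-22 equaled that of KON. IRF1, which responds to interferon gamma as well, stood at 2.34 and 3.08 in HSC-3, at 1.92 and 2.40 in KON, and at 1.61 and 1.23 in Ca9-22 (mean 0.28 ± 0.58, limma adjusted p = 0.512). It was higher in HSC-3 and KON and lower in Ca9-22. For all 4 factors the ranges of the siCtrl and siDLEU1-2 arrays overlapped, since the lines differ in level.

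Of the 43 effectors, 21 were lower in all 3 lines, and of the 62 probes 32 (51.6%) were, against 26.7% of all probes. By limma over the 3 lines, 7 of the 62 probes fell, for STAT2 and the effectors TRIM22, IFI35, OAS2, IFI6, IFI44, and TRIM21, against 4.52% of all probes lower. None rose, against 3.98% of all probes. Over 2-fold lower in all 3 lines were 6 probes of the 5 genes TRIM22, IFI35, IFI44, OAS2, and SAMD9L, against 2.08% of all probes. None was over 2-fold higher in all lines, against 2.08% as well. All 7 adjusted p-values were between 0.0264 and 0.0492, and with quantile normalization IFI6 (limma adjusted p = 0.0509) and TRIM21 (0.0508) did not pass. With HSC-3, KON, or Ca9-22 left out, no member probe passed, with 26, 27, and 29 of them at an unadjusted p under 0.05, against 22.8%, 23.4%, and 22% of all probes. Over all probes, 0, 0, and 244 (1.22%) passed in these fits. Without the line as a term none passed either, with 1 at an unadjusted p under 0.05, against 6.8% of all probes.

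TRIM22, an antiviral E3 ubiquitin ligase (chr11:5731591-5731650, hg19), stood at 3.74 under siCtrl and 2.17 under siDLEU1-2 in HSC-3, at -1.91 and -3.95 in KON, and at -0.64 and -3.32 in Ca9-22. The siDLEU1-2 arrays of KON and Ca9-22 were not well above background, so the decrease was 2.96-fold in HSC-3, at least 3.05-fold in KON, and at least 6.29-fold in Ca9-22. The mean of the measured changes was -2.10 ± 0.56 (SD, n = 3, limma adjusted p = 0.0264). IFI35, an interferon-induced leucine zipper protein (chr17:41165122-41165181), stood at 4.49 and 3.26 in HSC-3, at 1.99 and 0.17 in KON, and at 3.18 and 0.67 in Ca9-22. It was 2.35-fold, 3.55-fold, and 5.69-fold lower in these lines (mean -1.86 ± 0.64, limma adjusted p = 0.0329). IFI44 (chr1:79128479-79128538), a cytoplasmic protein induced in viral infection, stood at 5.66 and 4.62 in HSC-3, at 3.52 and 2.29 in KON, and at 5.53 and 3.24 in Ca9-22. Its mean change was -1.52 ± 0.68 (limma adjusted p = 0.0484), and the siCtrl levels of HSC-3 and Ca9-22 were close to each other. IFI6, a mitochondrial and endoplasmic reticulum protein (chr1:27992837-27992896), stood at 5.79 and 4.38 in HSC-3, at 0.77 and -0.03 in KON, and at 4.18 and 2.20 in Ca9-22 (mean -1.40 ± 0.59, limma adjusted p = 0.047).

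OAS2, a synthetase of the oligoadenylates that activate RNase L, had 3 probes that all pointed lower in every line. The brightest (chr12:113426550-113426609) stood at 4.69 and 3.71 in HSC-3, at 2.06 and -0.36 in KON, and at 1.97 and -2.35 in Ca9-22 (mean -2.57 ± 1.68, limma adjusted p = 0.0795). The called probe (chr12:113448429-113448488) stood at 3.06 and 1.30, at -0.13 and -2.68, and at -0.99 and -5.32 in the same order (mean -2.88 ± 1.31, limma adjusted p = 0.0448). Its Ca9-22 array with siDLEU1-2 was not well above background, which makes the decrease there at least 4.91-fold. TRIM21, a cytosolic antibody receptor and ubiquitin ligase (chr11:4406509-4406568), stood at 0.75 and 0.14 in HSC-3, at 0.21 and -1.18 in KON, and at -0.75 and -1.88 in Ca9-22 (mean -1.04 ± 0.39, limma adjusted p = 0.0492). Like STAT2, it was lowest in change in KON and not in Ca9-22. SAMD9L, a restriction factor of poxviruses and a growth suppressor, stood at 3.04 and 2.10 in HSC-3, at 0.15 and -1.91 in KON, and at 1.69 and -1.20 in Ca9-22 (mean -1.97 ± 0.98, limma adjusted p = 0.0528). Only its dimmer probe was over 2-fold lower in all lines. In all of these genes the siDLEU1-2 array was the lower within each line, and the ranges of the siRNAs overlapped across lines.

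**Figure D3:**
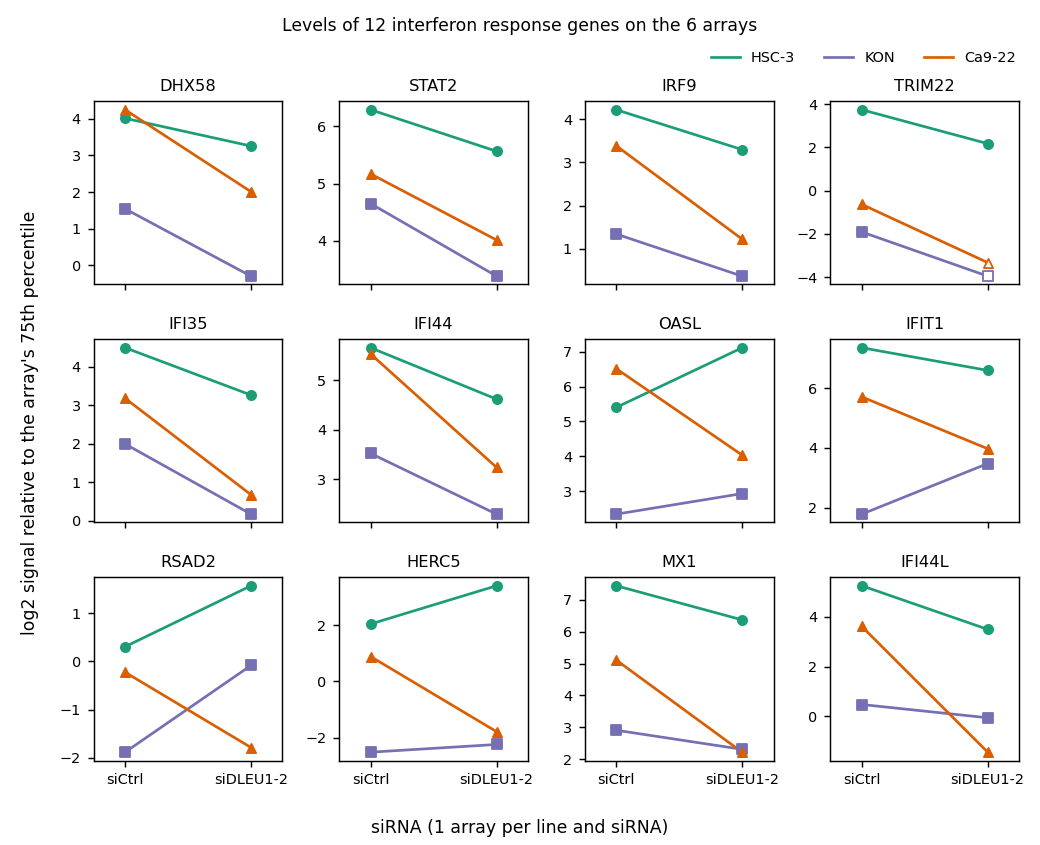
Log2 signal relative to the 75th percentile of the array (vertical axis) under siCtrl and siDLEU1-2 (horizontal axis) for 12 interferon response genes, with 1 line per cell line and open symbols for arrays not well above background. DHX58, STAT2, IRF9, TRIM22, IFI35, IFI44, MX1, and IFI44L slope down in all 3 lines, whereas OASL, IFIT1, RSAD2, and HERC5 slope down in Ca9-22 and up in HSC-3, KON, or both.

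Another group of effectors moved in opposite directions. OASL, IFIT1, IFIT2, HERC5, and RSAD2 were over 2-fold higher in HSC-3 or KON and over 2-fold lower in Ca9-22. These were 5 of the 62 probes (8.06%), against 0.271% of all probes with that combination and 0.727% of all probes over 2-fold in opposite directions in any pair of lines. OASL, an OAS homolog without synthetase activity, stood at 5.40 under siCtrl and 7.11 under siDLEU1-2 in HSC-3, at 2.34 and 2.93 in KON, and at 6.51 and 4.03 in Ca9-22. It was 3.28-fold higher in HSC-3 and 5.59-fold lower in Ca9-22, which turned the order of these lines around. HERC5, the ligase that attaches ISG15 to proteins, stood at 2.04 and 3.40 in HSC-3, at -2.52 and -2.25 in KON, and at 0.88 and -1.79 in Ca9-22. It was 2.57-fold higher in HSC-3 and 6.37-fold lower in Ca9-22.

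RSAD2 (viperin), a radical enzyme that makes a chain-terminating nucleotide, stood at 0.30 and 1.57 in HSC-3, at -1.88 and -0.08 in KON, and at -0.22 and -1.78 in Ca9-22. It was 2.40-fold and 3.48-fold higher in HSC-3 and KON and 2.95-fold lower in Ca9-22. IFIT2, which binds RNA and is a direct target of IRF3, stood at 5.94 and 6.99 in HSC-3, at 2.12 and 3.19 in KON, and at 4.64 and 3.16 in Ca9-22. Its second probe gave 0.75, 0.64, and -1.75, the same directions. IFIT1, which binds RNA with a foreign cap structure, stood at 7.36 and 6.60 in HSC-3, at 1.78 and 3.48 in KON, and at 5.71 and 3.97 in Ca9-22, so KON alone was higher. The difference between Ca9-22 and the mean of the other lines was -3.63 (SE 0.59) for OASL, -3.49 (0.57) for HERC5, -3.09 (0.43) for RSAD2, -2.54 (0.37) for IFIT2, and -2.21 (1.07) for IFIT1. None of these passed adjustment in limma (adjusted p of 0.571 or above).

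Most of the remaining effectors had their lowest change in Ca9-22. IFI44L, a paralog of IFI44, stood at 5.24 and 3.49 in HSC-3, at 0.48 and -0.05 in KON, and at 3.61 and -1.43 in Ca9-22, a 32.9-fold decrease in Ca9-22 that was the largest among the genes measured on both arrays of that line. MX1, a dynamin-like GTPase that blocks influenza virus, stood at 7.44 and 6.37 in HSC-3, at 2.91 and 2.31 in KON, and at 5.11 and 2.22 in Ca9-22 (7.43-fold lower in Ca9-22). MX2, its nuclear relative active against HIV, stood at 4.99 and 3.53 in HSC-3, at -1.65 and -1.95 in KON, and at 0.43 and -4.02 in Ca9-22. The last array was not well above background, and the decrease in Ca9-22 was at least 13.2-fold. Of the GTPases, only GBP1 was not lower in Ca9-22 (0.29).

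All 5 of OAS1, OAS2, OAS3, OASL, and EIF2AK2 (the kinase PKR, activated by double-stranded RNA) were over 2-fold lower in Ca9-22, with changes from -1.17 to -4.33. The 4 IFIT genes were lower by 1.21 to 2.57 on the log2 scale in Ca9-22, and IFIT3 changed by 0.05 in HSC-3 and -0.23 in KON. Likewise, PARP9 and its partner DTX3L, PARP12, and PARP14 were 2.28-fold to 2.97-fold lower in Ca9-22 and within 0.52 of 0 in the other lines on the log2 scale. The dimmer PARP9 probe changed by 0.96 in KON. In the ISG15 system, the modifier ISG15 itself changed by 0.42, 0.38, and -0.54 in HSC-3, KON, and Ca9-22. USP18, the protease that removes ISG15, changed by -1.66, -0.36, and -1.88 (limma adjusted p = 0.0833). DDX60, a helicase cofactor of RIG-I, was 2.08-fold higher in HSC-3 and changed by -0.06 and -0.66 in KON and Ca9-22. The chemokine CXCL10, which recruits T cells, stood at -0.54 and -2.49 in HSC-3, at -2.96 and -3.62 in KON, and at -1.54 and -3.42 in Ca9-22 (limma adjusted p = 0.054). Its siDLEU1-2 arrays of KON and Ca9-22 were not well above background, so it was 3.88-fold lower in HSC-3, at least 1.47-fold lower in KON, and at least 3.37-fold lower in Ca9-22.

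Before knockdown, the level of these genes followed the cell line. Under siCtrl, 56 of the 62 probes were highest in HSC-3 (against 38.4% of all probes) and 48 were lowest in KON (against 32.3%). The order HSC-3, Ca9-22, KON held for 36 of the 50 genes, and HSC-3, KON, Ca9-22 for 10. The median gene was 2.84 higher in HSC-3 than in KON on the log2 scale and 1.55 higher in Ca9-22 than in KON, while the medians over all probes were 0.06 and -0.08. After siDLEU1-2, HSC-3 remained 2.89 above KON, whereas the distance of Ca9-22 from KON was 0.18. HSC-3 was above KON in 50 of 50 genes with either siRNA, and Ca9-22 was above KON in 40 under siCtrl and 27 under siDLEU1-2. One array per line and siRNA lies behind each level, and differences between lines include every other difference between these tumors.

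**Figure D4:**
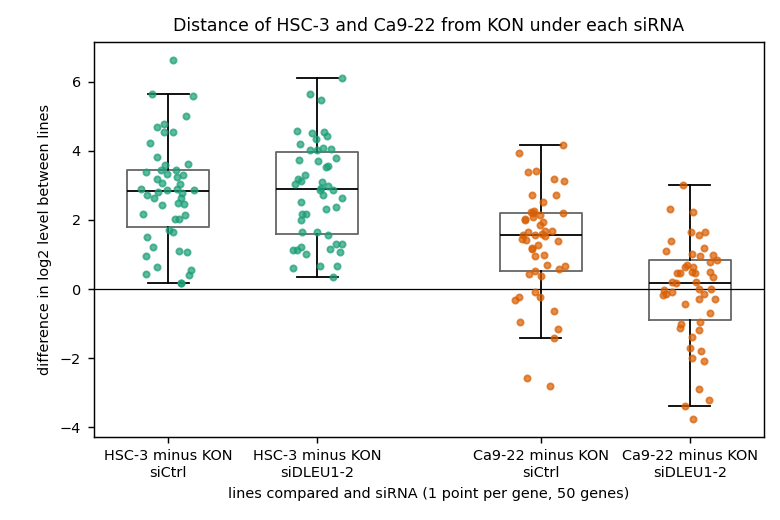
Difference in log2 level between HSC-3 and KON and between Ca9-22 and KON (vertical axis) under each siRNA (horizontal axis), with 1 point for each of 50 interferon response genes, the box at the quartiles and its line at the median. The median stays near 2.8 to 2.9 for HSC-3 and moves from 1.55 to 0.18 for Ca9-22.

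The line with the most signal was seldom the one with the largest decrease. For 7 of the 62 probes (11.3%) the line with the highest siCtrl level had the lowest change, against 36.7% of all probes, for which the siCtrl array enters both values as well. This count largely follows from counts given above and is not a separate result. HSC-3 was highest under siCtrl for 56 of the 62 probes, and Ca9-22 had the lowest change for 55. Relative to the mean of HSC-3 and KON, the median gene of Ca9-22 lay at 0.07 under siCtrl and at -1.22 under siDLEU1-2. The level test took the siCtrl and siDLEU1-2 arrays of a line as repeats of its level. Its error is therefore the spread of the lines' responses to the siRNA, not that of repeat cultures. Over both siRNAs, limma called 16 of 64 probes (25%) of 11 genes lower in Ca9-22, against 21.5% of all 23700 probes tested for level, and none higher, against 15.8%. The lower count is near that of all probes. It depended on the lines, with 6 lower and 12 higher of 64 when Ca9-22 was set against KON without HSC-3 (against 17.5% and 13.5% of all probes). Without KON, against HSC-3, 29 were lower (against 16.1%).

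Of the 11 genes called lower in level, 4 encode membrane proteins that block viral entry or release, and this group was not tested. IFITM1 stood at 9.16 under siCtrl and 9.01 under siDLEU1-2 in HSC-3, at 4.47 with both in KON, and at 3.85 and 1.26 in Ca9-22 (level difference -4.22, SE 0.62, limma adjusted p = 0.0113). BST2 (tetherin), which holds budding virions at the cell surface, stood at 5.58 and 4.73 in HSC-3, at 4.94 and 4.38 in KON, and at 3.51 and 1.01 in Ca9-22 (-2.65, SE 0.46, adjusted p = 0.0167 by limma). Both Ca9-22 arrays were below all 4 others for IFITM1 and BST2. IFITM2 stood at 8.65 and 8.75, at 5.76 and 6.03, and at 6.42 and 6.20 in HSC-3, KON, and Ca9-22, and IFITM3 stood at 9.79 and 9.84, at 6.93 and 7.20, and at 7.50 and 7.21. For both, Ca9-22 was above KON and below HSC-3 with either siRNA. IFITM2 and IFITM3 share much of their sequence, so their probes may measure both.

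UBE2L6, the conjugating enzyme of ISG15, stood at 3.27 and 3.02 in HSC-3, at 2.87 and 2.41 in KON, and at 1.72 and 0.60 in Ca9-22 (level difference -1.73, limma adjusted p = 0.01). IFI27, a mitochondrial protein strongly induced by interferon alpha, stood at 7.40 and 7.01 in HSC-3, at 4.16 and 3.0 in KON, and at 1.36 and 0.12 in Ca9-22 (-4.65, limma adjusted p = 0.00181). XAF1, a proapoptotic antagonist of XIAP, stood at 2.42 and 1.97 in HSC-3, at -0.35 and -1.73 in KON, and at -2.93 and -5.49 in Ca9-22 (limma adjusted p = 0.00508). Of its Ca9-22 arrays, only that with siCtrl was well above background, so no size is given for its level difference. For these 3 genes Ca9-22 was the lowest line with either siRNA. CMPK2, a mitochondrial nucleotide kinase next to RSAD2, stood at 2.37 and 0.77 in HSC-3 and at -1.04 and -1.82 in KON, and this probe was not well above background on either Ca9-22 array. It was at least 10.8-fold higher over HSC-3 and KON than in Ca9-22 (limma adjusted p = 0.00581). A second CMPK2 probe was well above background only on the siCtrl array of Ca9-22, at -3.06, so the probes of this gene disagree. OAS2, TRIM21, and TRIM22 were also called lower in level. For TRIM22, Ca9-22 lay above KON under siCtrl (-0.64 against -1.91), and neither line was well above background under siDLEU1-2. The brightest OAS2 probe stood at 1.97 in Ca9-22 and 2.06 in KON under siCtrl, and at -2.35 and -0.36 under siDLEU1-2.

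The ligand and a chemokine were near the limit of detection. IFNB1, a type I interferon that epithelial cells can make, was well above background only on the HSC-3 array with siDLEU1-2, at -3.46. Its siCtrl level there was -4.29, a difference of at least 1.09-fold, and no difference could be read in KON or Ca9-22. CXCL11, a chemokine of the same receptor as CXCL10, was well above background only on the siCtrl array of Ca9-22, at -1.82, and was at least 2.46-fold lower there after siDLEU1-2. CMPK2, CXCL11, and IFNB1 were the 3 genes with no probe kept for the change.

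Several genes had more than 1 kept probe. Among the 11 such genes, probes differed in change by under 0.5 on the log2 scale in all lines for 7, and by more in some line for DDX58, OAS2, HERC6, and PARP9. HERC6, a HERC5 relative, pointed both ways in Ca9-22, with 0.90 at the brighter probe and -2.0 at the dimmer one, which was not well above background after siDLEU1-2. No direction is given for HERC6 in Ca9-22.

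Among 30 other genes of interferon signaling, 24 had a kept probe. Of their 34 probes, 4 fell by limma, against 4.52% of all probes, and none rose. TLR3, the endosomal receptor of double-stranded RNA, stood at 1.94 under siCtrl and -0.79 under siDLEU1-2 in HSC-3, at 0.61 and -2.17 in KON, and at 0.59 and -1.20 in Ca9-22 (mean -2.43 ± 0.56, limma adjusted p = 0.0247). IFNLR1 (probe name IL28RA), the receptor chain of interferon lambda, stood at 1.66 and -0.50 in HSC-3, at 0.74 and -0.75 in KON, and at 2.08 and 0.32 in Ca9-22 (mean -1.80 ± 0.34, limma adjusted p = 0.0247). JAK1, the kinase shared by type I and lambda receptors, changed by -0.83, -1.26, and -1.42 (limma adjusted p = 0.033). These probes were lower in each line, and for TLR3 and IFNLR1 the ranges of the siRNAs did not overlap. The other 2 IFNLR1 probes were not kept and pointed higher in each line, 1 of them well above background on 1 array and the other on none. IFNAR2, a chain of the type I receptor, fell at 1 of 3 probes, the dimmest, and the brighter probes changed by -0.03 and -0.15 on average (limma adjusted p = 0.928 and 0.555).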

How the data were processed

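Agilent one-color arrays were used, 1 per line and siRNA, and their number (6) limits the precision. The authors deposited the spot intensity from Feature Extraction (version 10.7 in the submitters' processing notes), background-subtracted and not normalized between arrays. Their analysis used GeneSpring GX, with a normalization not given in the sources used here.

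From the log2 processed intensity, each array's 75th percentile was subtracted, after removal of control and outlier spots and averaging of repeat spots. The change was tested for the 19956 probes with signal well above background once or more in each line, and the level for the 23700 with such signal on both arrays of some line. A single dim array gave a bound. limma 3.58.1 in R 4.3.3 was fitted over all kept probes with Benjamini-Hochberg adjustment, for the siRNA with the line as block, for the level of Ca9-22, and for its response against the other lines. The replicate numbers pair arrays of 1 cell line, and deviations correlated at 0.83, 0.81, and 0.82 within the pairs.

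The genes, lists, and tests were chosen with earlier results of these data known. Full values were given for ligand, sensors, transcription factors, and effectors called by limma or over 2-fold in all lines or in opposite directions, and others are named to describe their role or range. A gene was shown by the brightest of its kept probes. Scripts were tested on simulated data. Probe coordinates are on hg19, and promoters are from RefSeq on GRCh38.p14, with no match used for DHX58, IRF7, OAS2, OASL, MX2, IFIT2, IFITM2, USP18, and TRIM22. siRNA strands were taken from the study's list of designed siRNAs. The alternatives tried were other scalings, normexp background correction (offset 50), the deposited series table, other filters on dim probes, a detection floor, gene means, a 3-fold threshold, no block, the methods' t-test, and each line left out.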

Additional observations from a re-analysis of the deposited data

Results flagged for a closer look

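The log2 fold changes of 5 genes spanned opposite directions between the lines, with a range of 4.20 for OASL, 4.03 for HERC5, 3.44 for IFIT1, 3.36 for RSAD2, and 2.55 for IFIT2. The difference of Ca9-22 from the other lines was tested in limma, and no adjusted p was below 0.571 with the filter on dim probes. Without that filter, it passed for OASL (adjusted p = 0.00113), HERC5 (0.00218), and RSAD2 (0.0113) in limma, and not for IFIT2 (0.0807) or IFIT1 (0.205).

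On 2 probes left out of the test of the change, signal was well above background after siDLEU1-2 and on no siCtrl array. IFNB1 reached -3.46 on the HSC-3 array with siDLEU1-2, and the dimmer probe of MX2 reached -2.63 on the same array, both on the log2 scale relative to the 75th percentile.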

How the results depend on the processing

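The lower count in Ca9-22 (50 probes) stayed between 38 and 53 under the normalizations, background correction, filters, floor, series table, and gene means tried, and was 30 at a 3-fold threshold. At that threshold the HSC-3 and KON counts were 6 and 8, with the filter for signal on all 6 arrays 6 and 9, and with normexp KON gave 9. The 7 probes called lower by limma became 14 with normexp, 0 without the filter on dim probes, and 0 to 0 with each line left out. Without the replicate block they became 0 (0 of all probes called, against 1697 with it), and the methods' t-test gave 0 before and 0 after adjustment. Probes over 2-fold lower in all lines became 2 with the all-array filter, 2 at 3-fold, and 6 to 14 with a line left out (13 without KON), and probes over 2-fold higher 0 to 2. The level of Ca9-22 was called higher for 2 probes with quantile normalization, 2 with the percentile of detected probes, 1 with normexp, 2 with the all-array filter, 2 with the floor, and 0 to 12 with a line left out, and lower for 6 to 29. The count of probes whose highest siCtrl line changed lowest became 4 with median centering and 3 with gene means. The response of Ca9-22 was called for 6 probes without the filter. The cause was not tested. The median level difference of Ca9-22 over both siRNAs was -0.61, and 0.07 on the siCtrl arrays alone. Over 50 genes, the sign of the mean change turned for up to 3 under a scaling, and for 6, 5, and 10 without HSC-3, KON, and Ca9-22. Settings for the counts within a line, the response of single genes, and the median level difference were chosen after seeing the data.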

Other observations

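The interferon lambda genes were named after their values were seen, and none of their probes was kept for the change. IFNL1 (probe name IL29), a type III interferon of epithelial cells, was well above background only on the HSC-3 array with siDLEU1-2 (-0.76) and the Ca9-22 array with siCtrl (-2.65). After siDLEU1-2 the level was at least 6.80-fold higher in HSC-3, and in Ca9-22 it was at least 1.56-fold lower. IFNL2 (probe name IL28A) stood at -1.34 under siCtrl and -0.84 under siDLEU1-2 in HSC-3. Its KON arrays were not well above background, and in Ca9-22 it was at least 3.81-fold lower than its siCtrl level of -1.23. The genes of this family are close in sequence, and their probes may measure more than 1 of them. Each value is 1 array, and no difference was tested.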
